A study of Naumovozyma castellii with 4 samples.

Results

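Genes of the yeast Saccharomyces castellii whose array probes share sequence with the probes of another gene were examined for their RNA and genomic DNA signals. A gene was taken when any stretch of 25 bases in any of its probes, read on the strand given, also occurred in a probe of a different gene, and genes linked by such stretches were joined into families. This gave 119 of the 5688 genes on the array (2.09%), in 57 families. Gene identifiers that end in the letter d were not taken as members but counted as links, and 8 of them lay in 7 of the families. A further 6 families held only such identifiers and were left out. The choice used probe sequence alone and no measured value.

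The study grew strain NRRL Y-12630 in rich medium and collected total RNA in mid-log phase. RNA was labelled with the green dye Cy3. Genomic DNA of the same strain, sonicated into short fragments, was labelled with the red dye Cy5. Both were hybridized together to each of 4 custom arrays. By the paper, the biological replicates are of RNA, and the genomic DNA mixed with them is a reference sample. The SDs and p-values of genomic DNA are therefore read as covering hybridization, not biological variation. The arrays form a single group of 4 biological replicates, with no treated or mutant group and no swapped dyes, so a dye effect on a probe stays in its ratio. Each array held 11376 gene probes of 55 bases, 2 for each gene; the median gene probe had an RNA intensity of 1916 to 2460 and a genomic DNA intensity of 11392 to 11732 above background, and 0 were saturated.

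S. castellii descends, like baker's yeast, from an ancestor whose whole genome was duplicated, and duplicated genes that kept nearly the same sequence remain in such genomes. In baker's yeast these include many genes of ribosomal proteins, and other families of similar sequence are mobile elements and genes near chromosome ends. On an array, a probe that matches several genes can bind the RNA or DNA of each of them. A genomic DNA reference holds each single-copy sequence in equal amount, so a sequence present in several copies can give a brighter reference spot. The files pair no identifier here with a gene name or role, so genes are given by their identifiers. Signals of one family are not independent measurements, and RNA of a gene and RNA of its relatives that bound to the same probe cannot be told apart.

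Most families were small. There were 48 families of 2 genes with 92 members, 6 of 3 with 15 members, 2 of 4 with 7 members and 1 of 5 with 5 members. Both probes shared a stretch in 65 members and a single probe did in 54. In 21 members a whole probe of 55 bases occurred unchanged under another gene's name. Sharing members also had closely placed probes: in 48.7% of them their own probes overlapped by at least 15 bases, against 18.3% of the 5548 genes that shared no stretch and belonged to no family. The median GC content of their probes was 40.9%, against 39.1% in those other genes.

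Values below are on the log2 scale relative to the median gene of each array, so that 0 is the median gene and 1 is 2-fold above it. The ratio is RNA over genomic DNA. A gene was called above or below when limma's treat test placed its mean over the arrays beyond 2-fold of the median gene, with a Benjamini-Hochberg adjusted p under 0.05 over all 5688 genes.

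The RNA over genomic DNA ratio of sharing genes was high in most families and very low in a smaller number. In all, 71 of 119 members (59.7%) were called above the median gene, where 22.3% of all genes were. A further 30 members (25.2%) were called below, against 18.2% of all genes, and 18 were not called. The ratios were spread widely: 14 members lay below -3, 16 between -3 and -1, 15 between -1 and 1, 5 between 1 and 2, 4 between 2 and 3, 19 between 3 and 4 and 46 above 4. Of the genes that shared no stretch, 1.75% lay above 4 and 54.5% between -1 and 1. The SD of the ratio over genes was 3.21 for members and 1.57 for those other genes. Those other genes include 46 with 20 to 24 shared bases, whose median ratio was 2.66 ± 0.25 (SD, n = 4 arrays). The 24 members with 25 to 29 shared bases had 2.70 ± 0.12, so a high ratio was not particular to members. The calls above depended on scaling. With a loess fit within each array, which takes out any trend between ratio and the mean brightness of both channels, 6 members were called above, and with the scanner software's processed signals 8 were, against 4.61% and 6.65% of all genes. The number of calls below changed little: 30 and 29 members were called below in these settings, against 8.23% and 11.1% of all genes.

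The median ratio of the members was 3.33, 3.45, 3.34 and 3.50 above that of the other genes on replicates 1 to 4. The mean of 3.40 ± 0.085 (SD, n = 4) corresponds to a 10.6-fold difference, and processed signals turned it to -0.19 and loess to -0.47. The genomic DNA signal, which is the reference and not an expression measure, was also higher in members, by 1.20, 1.17, 1.08 and 1.15 on the 4 arrays. The mean difference of 1.15 ± 0.050 (SD, n = 4), or 2.22-fold, kept its sign under all alternatives tried for it. It was 2.73 with processed signals. The SD of this difference covers hybridizations of the reference, not biological replicates. The RNA signal alone was higher by 4.50 ± 0.21 (SD, n = 4), or 22.7-fold, and by 3.01 with processed signals. Each difference was many times its SD between arrays and had the same sign on 4 of 4 arrays, but an exact permutation test over 4 arrays cannot give a two-sided p below 0.13.

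The bright genomic DNA was widespread. By the same test 53 members (44.5%) had genomic DNA called above the median gene, where 2.94% of all genes were, and 5 were called below, against 2.73%. With processed signals and with normexp background correction, 86 and 83 members were called above, where 8.79% and 8.32% of all genes were. The signal lay above the median gene on every array in 107 members (89.9%), against 41.7% of the genes that shared no stretch. RNA was called above in 74 members (62.2%) and below in 17, where 21.4% and 16.0% of all genes were. Both the ratio and the genomic DNA were called above in 38 members, as in 1.93% of all genes, while 12 members had genomic DNA called above and a ratio called below, as in 0.686% of all genes.

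**Figure D1:**
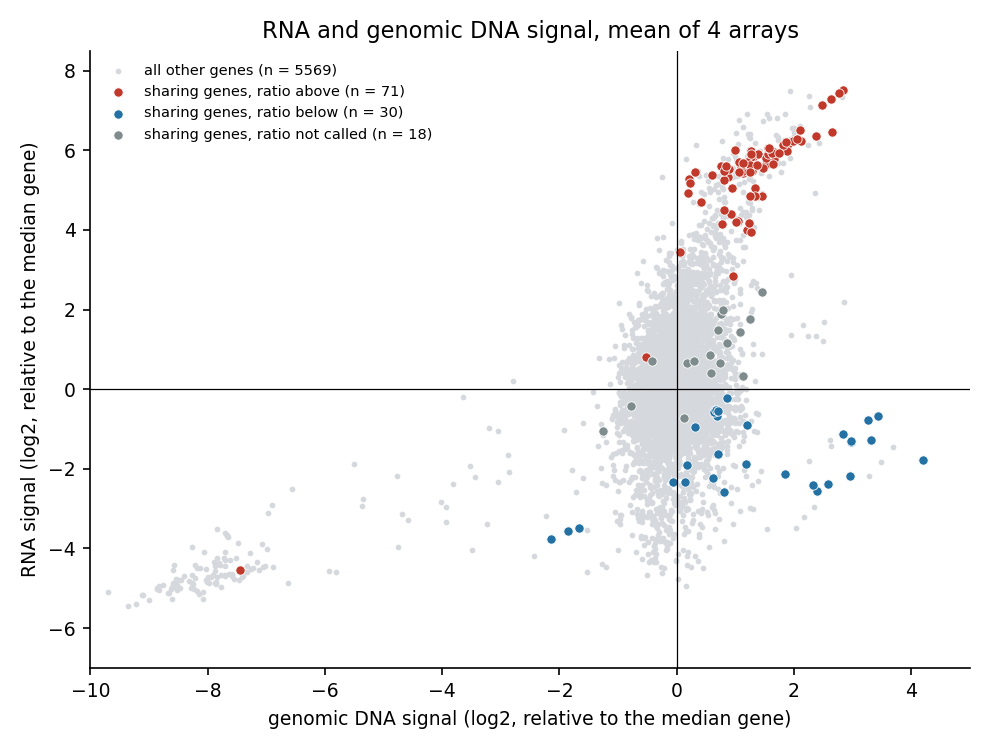
RNA signal against genomic DNA signal, both as log2 relative to the median gene and averaged over 4 arrays; each point is a gene, grey for other genes and coloured by ratio call for the 119 sharing genes. The members called above gather at the upper right with a median genomic DNA of 1.25, and the members called below include a group at the lower right with bright genomic DNA and little RNA.

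Genomic DNA was brighter in members than in genes of like ratio. Members called above had a median genomic DNA signal of 1.25 ± 0.063 (SD, n = 4 arrays), or 2.37-fold the median gene, and other genes called above had 0.026 ± 0.027, or 1.02-fold. Since members had the higher ratios, the comparison was repeated for ratios above 3: the 65 members there had 1.28 ± 0.042 and the 282 other genes 0.54 ± 0.076. Of these other genes 74 had a genomic DNA spot not well above background, against 0 of the members, and the remaining 208 had a median of 0.83 ± 0.079, or 1.78-fold, against 2.43-fold in the members. Members called below had 0.85 ± 0.038, and other genes called below 0.14 ± 0.016. Among ratios below -3 the contrast was widest. It was 2.83 ± 0.038 in 14 members and 0.061 ± 0.038 in 156 other genes, or 7.09-fold and 1.04-fold the median gene. Genes of like ratio were not of like RNA. At ratios above 3 the median RNA was 50.0-fold the median gene in members and 18.4-fold in other genes. At ratios below -3 it was 0.279-fold and 0.093-fold. Among genes called below, RNA was instead slightly lower in members, at 0.30-fold against 0.35-fold. The contrast in genomic DNA at equal RNA was not tested.

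Family size and genomic DNA did not move together in a simple order. The median genomic DNA signal was 1.14 ± 0.052 (SD, n = 4 arrays) in families of 2, 0.98 ± 0.13 in families of 3 or 4 and 2.46 ± 0.18 in the family of 5. The values for 2 and for 3 or 4 differed by little more than the SD of the second, and the last rests on a single family. On a linear scale the medians were 2.20-fold, 1.97-fold and 5.51-fold the median gene. The ratio had a median of 3.96 ± 0.12 in families of 2, 1.44 ± 0.34 in families of 3 or 4 and -4.84 ± 0.16 in the family of 5; with loess the first pair of medians turned to -0.33 and -0.71 and the last was -5.0.

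Genes of one family mostly had the same call. Of the 52 families with at least 2 members, 32 had all members called above by ratio, 10 all below, 5 all not called and 5 were mixed. By genomic DNA 18 had all members above, 1 all below, 21 all not called and 12 were mixed. In 47 families of 2, identifiers with suffix d included and that of Scas_92.1 left out for want of genomic DNA signal, the genes differed in ratio by a median of 0.15, or 1.11-fold, and in genomic DNA by 0.21. The 29 of these families in which both genes were called above differed by a median of 0.11 in ratio and by 0.91 at most, in Scas_662.6 and Scas_669.18, so that 0 of these 29 pairs were over 2-fold apart.

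**Figure D2:**
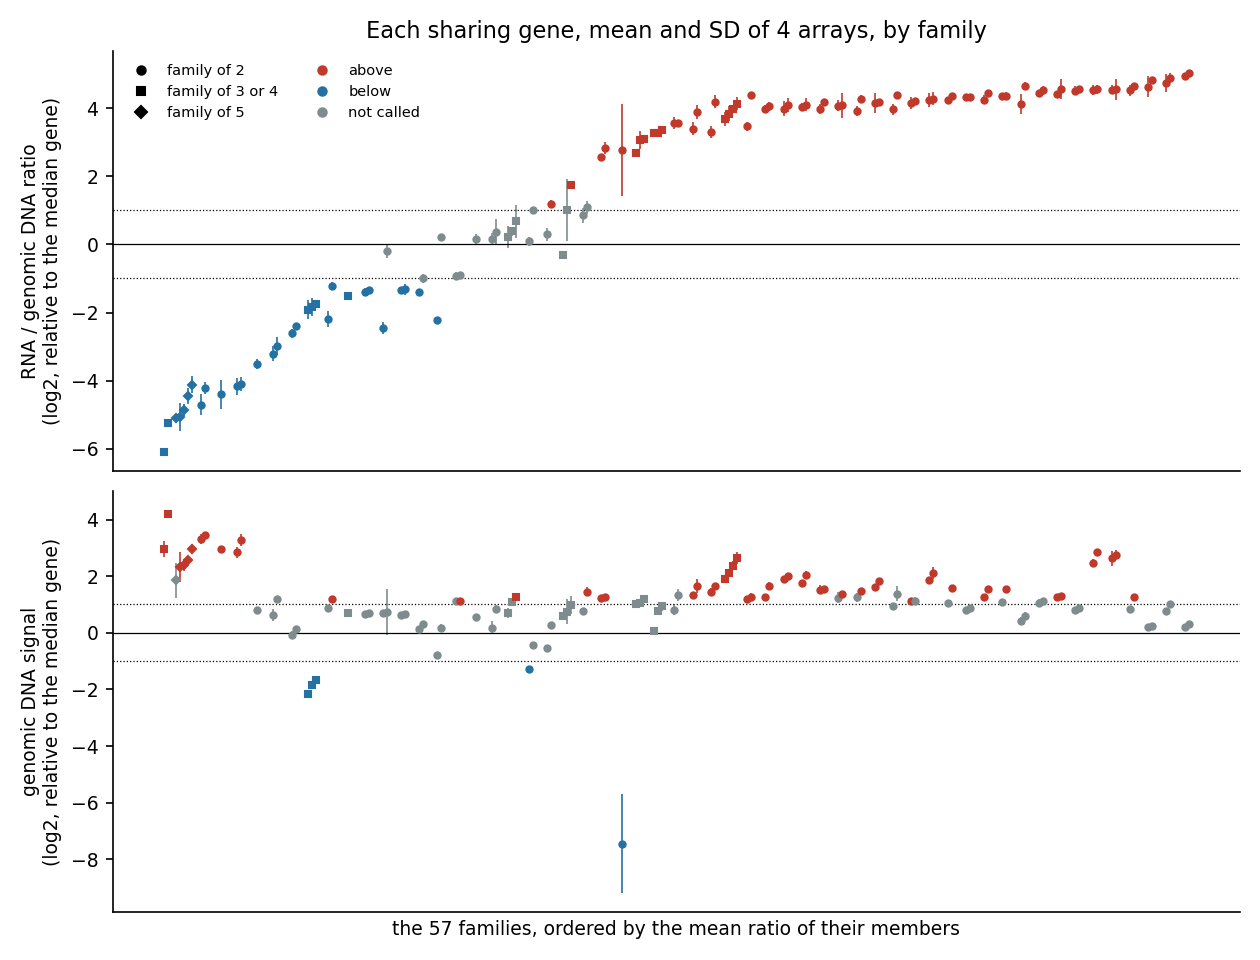
The ratio (top) and the genomic DNA signal (bottom) of each sharing gene by family, as log2 relative to the median gene; points are means and bars SDs over 4 arrays, colours give the call for the value plotted, shapes the family size, and dotted lines 2-fold. A long plateau of families near a ratio of 4 stands beside a low arm at the left that reaches -6.10 and has bright genomic DNA; the single point far below in the bottom panel is Scas_92.1, which had no genomic DNA signal clear of the background.

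The largest family had very low ratios and bright genomic DNA. Its genes, Scas_382.1, Scas_476.4, Scas_485.4, Scas_535.1 and Scas_642.22, lie on 5 different contigs as read from their identifiers. Scas_476.4 had the lowest ratio of the family, at -5.16, -5.0, -5.26 and -5.0 on replicates 1 to 4, with a mean of -5.11 ± 0.13 (SD, n = 4; limma treat adjusted p = 1.67e-08). Its genomic DNA intensity was 54109, 70880, 52539 and 66427, or 5.25-fold the median gene on the log scale average, and its RNA intensity was 267 to 468, below the array medians on every array. That RNA was well above background at 6 of 8 spots, so part of it lay close to the background. In the other genes of the family RNA was well above background at 7 or 8 of 8 spots. Scas_382.1 had the highest ratio, at -4.25, -3.76, -4.34 and -4.10, which lay above the range of Scas_476.4 on every array. The genomic DNA of Scas_382.1 was 2.76 on replicate 1 and 1.44 to 1.64 on the others, with no call (adjusted p = 0.082 by limma treat), and on replicate 1 the mean rests on 1 probe because the other spot was non-uniform. The other members had genomic DNA means of 2.33 to 2.97, all called above. In Scas_535.1, where 1 probe shares a stretch, that probe was the dimmer one, at 2.53 against 3.40 relative to the median probe.

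The brightest genomic DNA of any member was that of Scas_196.1, in a family with Scas_535.2 and the suffix d identifier Scas_558.4d. Its genomic DNA intensity was 222910, 193860, 199650 and 231060 on replicates 1 to 4, or 18.3-fold the median gene, and its RNA intensity was 571 to 717. Its probes overlap each other by 54 of 55 bases and one of them recurs unchanged under Scas_558.4d. In Scas_535.2 the genomic DNA intensity was 75226 to 113390, or 7.79-fold the median gene, so its range did not reach that of Scas_196.1. A single probe of Scas_535.2 shares a stretch, and it was the dimmer one, at 2.39 against 3.53 relative to the median probe. Scas_558.4d lay between them in its mean, at 9.76-fold, and its range of 78783 to 160910 overlapped that of Scas_535.2. RNA in all 3 was 358 to 717 on every array, below the array medians.

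Other families shared this pattern. In Scas_438.1 and Scas_534.1, which hold an identical probe, the ratios were -4.71 ± 0.31 and -4.22 ± 0.17 (SD, n = 4) and the genomic DNA was 9.91-fold and 10.8-fold the median gene. The RNA signals of this pair, -1.28 and -0.66, were not called. Scas_542.11 and Scas_698.1 had ratios of -4.11 and -4.17 and genomic DNA of 7.19-fold and 9.62-fold. Scas_523.1, linked to a suffix d identifier, had a ratio of -4.39 ± 0.42 and genomic DNA of 7.81-fold. In Scas_698.1 genomic DNA was bright on both probes, at 3.74 on the sharing probe and 2.95 on the other.

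At the other end stood families with both bright genomic DNA and very abundant RNA. The family of 4 with Scas_623.9, Scas_632.10, Scas_680.17 and Scas_714.19 had all members called above in both measures. Scas_714.19 was highest in ratio, at 4.16, 4.17, 3.87 and 4.34 on replicates 1 to 4 (mean 4.14 ± 0.19, SD; limma treat adjusted p = 8.88e-08), and Scas_680.17 lowest, at 3.84, 3.54, 3.46 and 3.85. Scas_680.17 had the brighter genomic DNA on every array, 59573 to 81393 against 40863 to 46089, and their RNA ranges of 159080 to 226210 and 107190 to 187330 overlapped. The ratios of this family depended on scaling: with loess Scas_714.19 was at -0.57 and Scas_680.17 at -1.50.

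**Figure D3:**
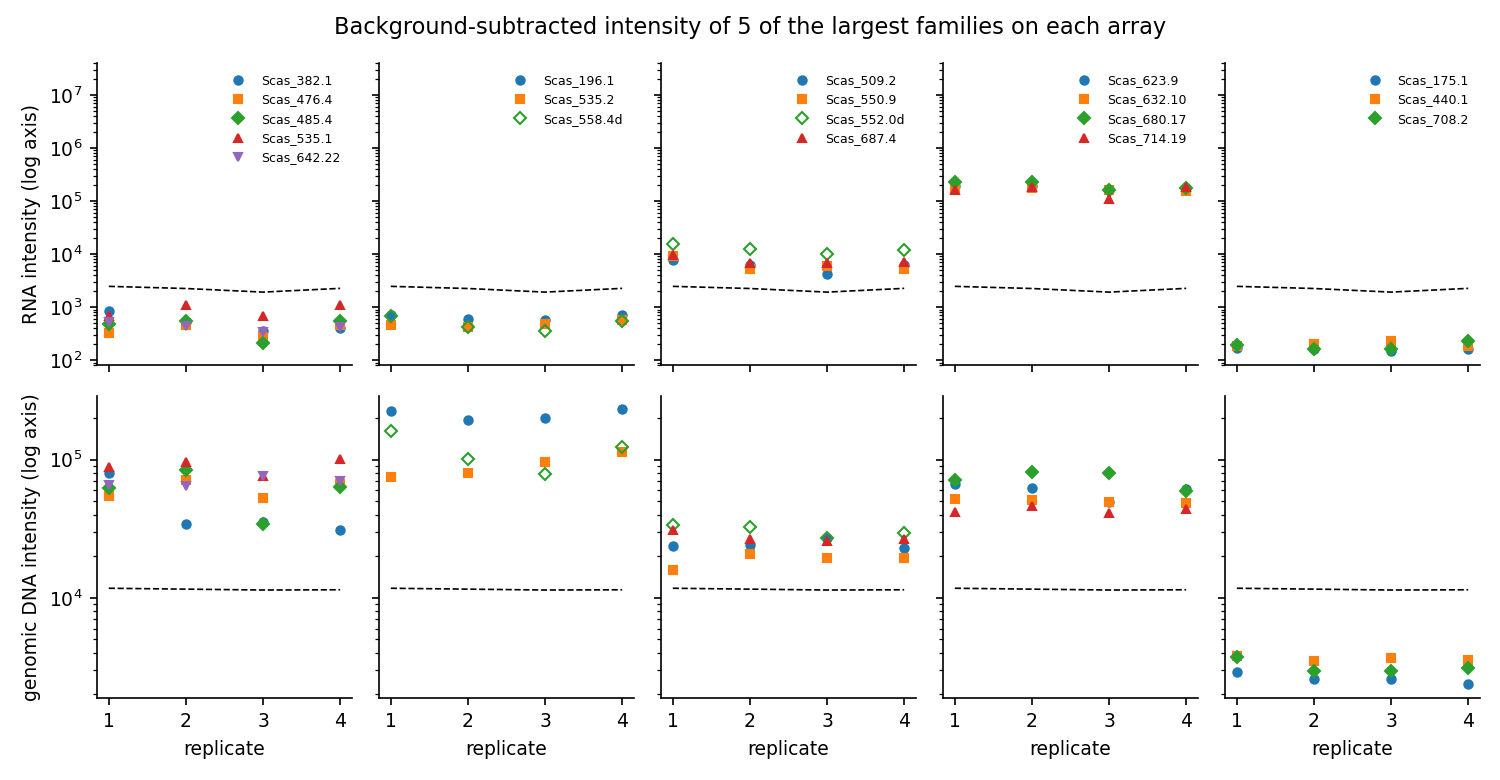
Background-subtracted RNA (top) and genomic DNA (bottom) intensities on log axes for 5 of the largest families, by replicate; each symbol is a gene, open symbols are suffix d identifiers and dashed lines the median probe of the array. The first pair of families have dim RNA and bright genomic DNA, the family of Scas_623.9 is bright in both, and that of Scas_175.1 is dim in both.

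The highest RNA of any member was in a pair of small families. Scas_617.8, paired with Scas_479.4, had RNA intensities of 487290, 426520, 326680 and 394170 and genomic DNA of 78636 to 91315, or 7.16-fold the median gene. Scas_591.6 and Scas_705.50 had nearly the same values, with ratios of 4.55 and 4.54 and genomic DNA of 6.19-fold and 6.79-fold. The differences between the genes of these families, 0.017 and 0.0097 in ratio, were below the SD of each gene between arrays.

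The highest ratios did not come with the brightest genomic DNA. Scas_717.52 had a ratio of 4.94, 4.98, 5.07 and 5.14 on replicates 1 to 4 and a mean of 5.03 ± 0.09 (SD; limma treat adjusted p = 1.56e-08). Its partner Scas_641.9 followed at 4.94 ± 0.07, lower on 3 of 4 arrays and by a mean of 0.098. Their genomic DNA was 1.24-fold and 1.16-fold the median gene and was not called. Scas_703.42 and Scas_719.12 came next at 4.89 ± 0.15 and 4.82 ± 0.10, with genomic DNA of 2.0-fold and 1.17-fold. The differences between neighbours in this order were close to or below the SD of a gene between arrays. With loess Scas_717.52 was at 1.43 and still called, while Scas_703.42 was at 0.68 and lost its call. These genes shared stretches of 25 to 30 bases. In the 24 members whose longest shared stretch was 25 to 29 bases, the median genomic DNA was 0.49 ± 0.080 (SD, n = 4 arrays), or 1.40-fold.

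A single family with measured signals was dim in both channels. Scas_175.1, Scas_440.1 and Scas_708.2 share up to 55 bases, and their genomic DNA intensities were 2378 to 3768 over the 3 genes, below the array medians on every array. Their genomic DNA means of -2.15, -1.67 and -1.86 were all called below (limma treat adjusted p = 9.05e-06, 1.32e-05 and 0.000107). RNA was 149 to 231 and was well above background at 5, 6 and 5 of the 8 spots of the 3 genes, so it lay close to the background. The ratios of -1.75, -1.92 and -1.83 were called below, but with processed signals Scas_175.1 was at -0.80 and Scas_440.1 at -0.06, both without a call, and with loess they were at 1.17 and 1.53. The remaining members with dim genomic DNA were Scas_56.1, at -1.26 ± 0.08 (SD, n = 4) with a ratio of 0.09, and Scas_92.1. Neither probe of Scas_92.1 had genomic DNA well above background on any array. Its ratio call above rests on that reference, so it has no measured ratio, and without it 70 members were called above by ratio and 4 below by genomic DNA. Among members with every spot well above background, Scas_696.38 had the next lowest genomic DNA after Scas_56.1, at -0.78 ± 0.10, and was not called.

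Families with discordant genes were few. The widest pair was Scas_696.38 and Scas_696.39, which share 26 bases and carry consecutive identifiers on one contig. Scas_696.38 had ratios of 0.18, 0.20, 0.31 and 0.18, and Scas_696.39 had -2.20, -2.20, -2.13 and -2.31, so the genes did not overlap on any array. Their difference of 2.43 ± 0.050 (SD, n = 4) is 5.38-fold, and the mean ratios of the probes of each gene lay within 0.10 of each other. Scas_552.2 and Scas_634.16, with 27 shared bases, differed by 2.26 ± 0.098, or 4.80-fold. The order of that pair held on 4 of 4 arrays, but the probes of Scas_552.2 themselves lay 3.16 apart in genomic DNA, with the sharing probe brighter. Scas_507.1 and Scas_520.2, at -1.22 ± 0.12 and -2.19 ± 0.24, differed by 0.97, just under 2-fold, while the probes of Scas_507.1 lay 1.1 apart in ratio and those of Scas_520.2 0.68 apart.

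An identical probe of 55 bases was carried by 6 families of 2. In Scas_444.2 and Scas_651.2 the ratios were 4.05 ± 0.12 and 3.97 ± 0.12 (SD, n = 4), both called above. Scas_517.1 and Scas_685.13, and Scas_719.60 with the suffix d identifier Scas_719.57d, had ratios of -0.92 to 0.17 and were not called. Apart from Scas_438.1 and Scas_534.1, the others were Scas_626.2 and Scas_692.7, with ratios of 1.08 ± 0.19 and 0.85 ± 0.22 (SD, n = 4) that were not called, and Scas_561.5d2 and Scas_691.43d1, at -3.0 ± 0.26 and -3.21 ± 0.22. The ratio differed by 0.23 and 0.21 within the last 2 pairs, in one direction on 3 of 4 arrays, and genomic DNA by 0.67 and 0.57 in one direction on 4 of 4 arrays. Scas_692.7 had 1 of its 2 spots left out on replicates 1, 2 and 3, so its values there rest on 1 probe. On the 1 array where its identical spots could be compared, they differed by 0.032 in genomic DNA. Scas_561.5d2 on replicate 3 and Scas_691.43d1 on replicate 2 also rest on 1 probe.

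In some families it was the probes of a gene that disagreed. The probes of Scas_719.40 lay 3.34 apart in ratio and those of its relative Scas_567.2 3.61 apart. Scas_719.40 was at 1.77, 1.83, 0.25 and 0.21 on replicates 1 to 4, with 1 of 2 spots non-uniform and not used on replicates 1 and 2. The third gene, Scas_680.24, had probes within 0.11 of each other and a ratio of 1.74 ± 0.07 (SD, n = 4; limma treat adjusted p = 5.11e-06). In the family of Scas_509.2, Scas_550.9, Scas_687.4 and Scas_552.0d, the probes of each gene lay 1.68 to 2.75 apart. The means of Scas_509.2 and Scas_550.9, 0.22 ± 0.34 and 0.67 ± 0.49, are midpoints of such probes. Among members with separate probes, 18.0% of 61 had probes over 2-fold apart in ratio, against 6.13% of 4533 other genes, and in genomic DNA the shares were 19.7% and 5.01%.

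Across probes, median genomic DNA was brighter in the classes with shared stretches of 20 bases or more than in the shorter ones. Probes whose longest stretch in common with another gene was under 15 bases had a median of 0.995-fold the median probe, and those with 15 to 19 bases 0.988-fold. At 20 to 24 bases the median was 1.48-fold over 68 probes. Of these, 17 were second probes of members and had 1.96-fold, while the 51 of genes just outside the choice of members had 1.35-fold. At 25 to 34 bases, just inside, it was 1.88-fold over 73. It was 2.57-fold at 35 to 44 bases, 2.39-fold at 45 to 54 and 2.51-fold for the 30 probes with all 55 bases in common. The last 3 values do not form a rising order. The classes also differed in ratio. Median ratios were 0.0039, 0.30, 3.27, 3.89, 3.98, 3.83 and -1.16 from the shortest class to the longest, relative to the median probe. At 25 to 34 bases, genomic DNA was 2.10-fold in genes called above by ratio, 1.7-fold in those called below and 1.31-fold in those not called. The relation to stretch length at equal ratio was not tested. On each array the medians of the classes at 25 bases or more lay above those of the classes under 20 bases. Probes of members that shared no stretch of 25 bases had a median of 1.94-fold over 54 probes. It was 2.2-fold over the 29 of members called above by ratio and 2.9-fold over the 16 of members called below. Over the 9 of members not called it was 0.90-fold, so these were not bright.

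**Figure D4:**
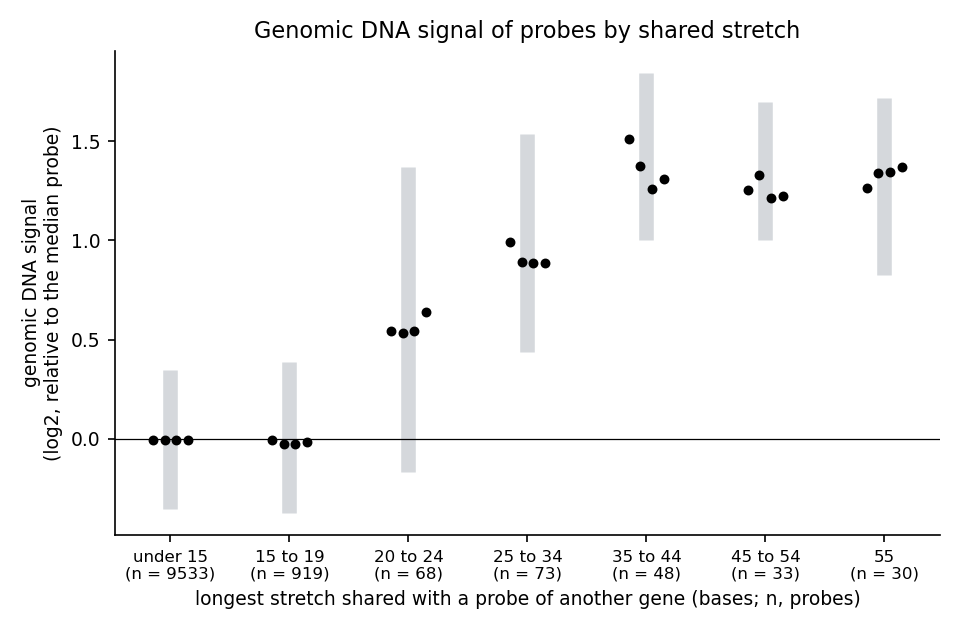
Genomic DNA signal of probes, as log2 relative to the median probe, by the longest stretch shared with a probe of another gene; points are the medians on 4 arrays and grey bars the quartiles over probes of the mean signal. The medians lie at 0 below 20 bases, near 0.56 at 20 to 24 bases and between 1.26 and 1.36 from 35 bases on. The classes also differ in ratio.

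Within a gene the sharing probe was more often the brighter one. In the 54 members with 1 sharing and 1 non-sharing probe, genomic DNA was higher at the sharing probe by a median of 0.36, or 1.29-fold, and the quartiles were -0.26 and 0.63. The median was 0.55 with processed signals, 0.59 with normexp and 0.16 when a stretch of 20 bases chose the members. On every array with values for both probes, genomic DNA was higher at the sharing probe in 36 of the 54 and lower in 13. Some genes had such values on fewer than 4 arrays, and Scas_582.7, among the 13, on 1 only. The 54 include Scas_92.1, whose genomic DNA was not well above background at any spot. A non-sharing probe is one without a shared stretch of 25 bases, and 17 of the 54 still shared 20 to 24 bases. In Scas_683.40 and Scas_719.12 the probes of the gene overlap by 54 bases, with a longest shared stretch of 25. In such genes the contrast is between a longer and a shorter shared stretch. The ratio differed by 0.093 in the median and had no fixed sign: it was -0.24 with processed signals and -0.10 with normexp background correction. Single genes departed widely: in Scas_382.1 the sharing probe was at 0.18 and the other at 2.87, while in Scas_542.11 they were at 3.56 and 2.13.

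**Figure D5:**
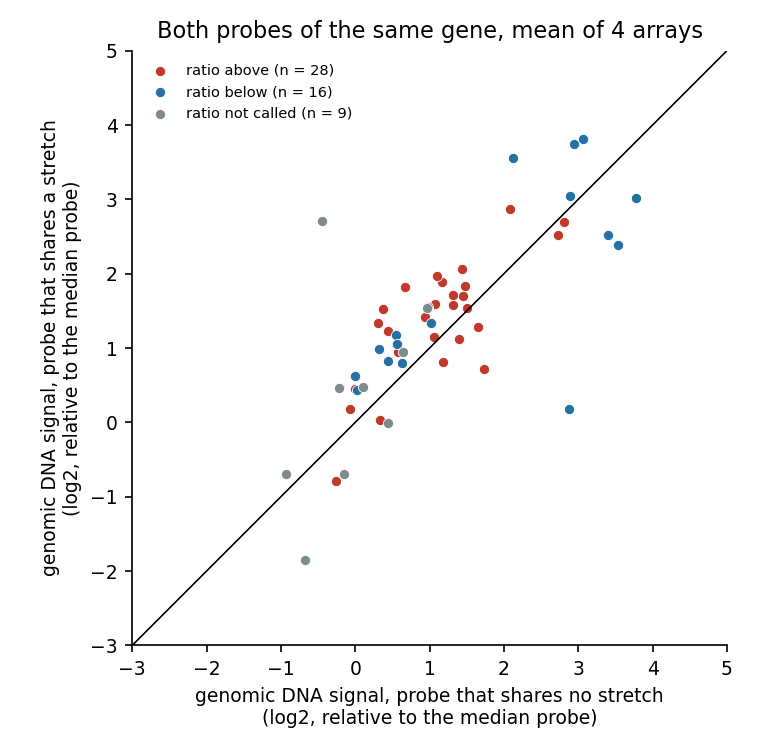
Genomic DNA signal of the sharing probe against the non-sharing probe of the same gene, as log2 relative to the median probe and averaged over 4 arrays, coloured by the ratio call of the gene; Scas_92.1, without signal, is not drawn, and the line marks equality. Most points lie a little above the line, and the gene far below it is Scas_382.1. Non-sharing probes lack a shared stretch of 25 bases, but some share 20 to 24.

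Identical probes give the error of a spot. There were 15 pairs of spots with the same 55 bases under different gene names, in 10 pairs of genes. The SD of the log2 difference between such spots was 0.31 in ratio, 0.44 in genomic DNA and 0.47 in RNA, against 1.0, 0.90 and 1.24 for separate probes of one member. Of the 13 pairs with values on 3 or 4 arrays, 10 differed in genomic DNA in the same direction on every array, and 5 did in ratio. The largest mean difference in genomic DNA was 0.80, between the spots of Scas_438.1 and Scas_534.1. A difference of this size between genes, even where it held on every array, is within what the same sequence gave at separate spots.

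Some families had neighbouring identifiers, numbered within 2 of each other, on several contigs. By their identifiers, Scas_671.8 and Scas_671.9 belong to different families, and both families also have neighbouring genes on contigs 695 and 716. All of these genes were called above by ratio: the family of Scas_671.8 had 2.68 to 3.08 and that of Scas_671.9 had 3.27 to 3.35. Likewise, the families of Scas_623.9 and Scas_623.7 recur on contig 680 as Scas_680.17 and Scas_680.15. Scas_623.7 and Scas_680.15 had ratios of 4.25 ± 0.13 and 4.43 ± 0.12 (SD, n = 4) and genomic DNA of 2.94-fold and 2.41-fold the median gene. As read from the identifiers, 5 families held genes of the same contig.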

How the data were processed

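Both channels' intensity, for spots and for local background, comes from the deposited scanner files, which Feature Extraction 10.1.1.1 wrote per the file headers; the authors' deposited table holds log2 ratios of RNA over genomic DNA and was used as an alternative. Its rows were paired with genes by order of first occurrence, which was checked against the scanner values (r of at least 0.999). Median background intensity was taken off median spot intensity, spots with non-uniform features or backgrounds were left out (500, 577, 771 and 93 gene probes on replicates 1 to 4), and log2 of Cy3 over Cy5 was taken. A gene's ratio is the median over its probes, and its RNA and genomic DNA signals are means of log2 values. Ratios were quantile normalized, and all values were centred on the median gene of each array. limma 3.58.1 in R 4.3.3 (treat, 2-fold, two-sided) was fitted to genes with at least 2 values. On simulated data with 5688 genes and 200 changed, it recovered 196 for the ratio, 198 for genomic DNA and 197 for RNA, with 0 false calls. The changed genes were set well past the 2-fold limit and all others at the median gene. The check therefore says nothing about genes near the limit, of which the real data hold many. Values as 2-fold and the like are powers of mean log2 values. Signals are not corrected for the binding of related sequences.

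Families and the share of probe overlap were found from the probe sequences with networkx 3.6.1. Named genes were the highest and lowest in ratio of 5 of the largest families, the 4 highest and 4 lowest ratios and the 4 brightest and 2 dimmest genomic DNA signals among members well above background, the 3 families of 2 with the widest ratio difference and the 3 with the longest stretch, and Scas_196.1, Scas_535.2 and Scas_719.40; other genes named were chosen after their values were seen. The members and lists were chosen with earlier results of these data known. Contigs and neighbours were read from the identifiers. Of 5688 identifiers, 0 matched the reference gene table (assembly ASM23734v1), so gene groups could not be listed and no sequence is shown. Alternatives were processed signals, normexp (offset 50), probes well above background only, background not subtracted, non-uniform spots kept, median centring, loess, the probe with the brighter genomic DNA, the deposited values, eBayes, each replicate left out, stretches of 20 and 35 bases, both strands and suffix d genes left out. Leaving out the family of Scas_92.1 and asking for genomic DNA well above background at every spot were added after seeing the data. The number of arrays limits the precision, and p-values cover the spread between arrays, not that between probes. For genomic DNA that spread is between hybridizations of a reference sample. For the ratio it is taken after quantile normalization, which gives genes of equal rank the same value on each array. SDs and p-values of the most extreme ratios can therefore be too small. Scas_196.1 had a ratio of -6.10 on all 4 arrays, although its RNA intensity ranged from 571 to 717.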

Additional observations from a re-analysis of the deposited data

Results flagged for a closer look

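Of 98 values screened over the 4 arrays (ratio, genomic DNA and RNA of the named genes, and the medians), 8 had 1 array far from the others; chance alone gives this in about 1 in 20 groups. All values are log2 relative to the median gene. In 5 of the 8, a probe of the gene was left out as non-uniform on the array that stood apart, so the mean there rests on the other probe. These were the genomic DNA of Scas_382.1, 2.76 on replicate 1 against 1.44 to 1.64; the genomic DNA of Scas_552.2, -0.46 on replicate 3 against 1.02 to 1.20; the RNA of Scas_520.2, -0.53 on replicate 3 against -1.03 to -0.98; the ratio of Scas_561.5d2, -3.39 on replicate 3 against -2.92 to -2.82; and the genomic DNA of Scas_691.43d1, 1.34 on replicate 2 against 1.12 to 1.14. In the other 3 no probe was left out on that array: the RNA of Scas_175.1 was -3.67 on replicate 3 against -3.82 to -3.80, the genomic DNA of Scas_703.42 was 1.20 on replicate 1 against 0.93 to 0.96, and the ratio of Scas_696.38 was 0.31 on replicate 3 against 0.18 to 0.20.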

How the results depend on the processing

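With 1 group of replicates the arrays limit what can be tested, and 2 probes a gene limit each value. No paired analysis was possible because the samples form a single group. The gene group listing was not run, since no identifier was paired with a gene name. Of 262 values recomputed for the counts, medians and probe differences, 204 stayed within the limits set; the cause of the changes was not tested, except that loess removes the trend with brightness, eBayes asks for no minimum fold and a change of stretch changes the members (162 at 20 bases, 76 at 35).

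With processed signals, 8 members were called above by ratio and 86 by genomic DNA, where 6.65% and 8.79% of all genes were. The median differences were -0.19 in ratio, 2.73 in genomic DNA and 3.01 in RNA. Genomic DNA was 2.93 in families of 2 and 2.14 in families of 3 or 4, and the ratios by family size were -0.086, -0.61 and -5.12. Sharing minus non-sharing probes gave 0.55 in genomic DNA, -0.24 in ratio and 0.15 in RNA. With normexp, 83 members were called above by genomic DNA, where 8.32% of all genes were. The median differences were 2.66 in ratio and 1.95 in genomic DNA, genomic DNA by family size was 1.93, 1.65 and 3.69, and the ratios were 3.04, 0.96 and -5.88. Probe differences were 0.59 in genomic DNA and -0.10 in ratio. With loess, 6 members were called above by ratio, the median difference was -0.47, and the ratios in families of 2 and of 3 or 4 were -0.33 and -0.71.

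With only probes well above background the family of 5 had genomic DNA of 2.65 and families of 3 or 4 a ratio of 1.81, which was 1.09 with non-uniform spots kept. With the brighter probe the median difference in ratio was 3.52, and families of 3 or 4 and of 5 were at 1.94 and -5.13. eBayes called 107 members above and 8 below by genomic DNA, where 41.3% and 41.5% of all genes were, and 34 below by RNA, where 44.6% were.

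A stretch of 20 bases gave 11 of 162 members below by genomic DNA and 29 below by RNA, where 2.73% and 16.0% of all genes were. The median differences were 3.22 in ratio, 1.05 in genomic DNA (1.01 in families of 2) and 3.97 in RNA, the ratios in families of 3 or 4 and of 5 or more were 2.52 and -4.14, and probe differences were 0.16, 0.15 and 0.16 in genomic DNA, ratio and RNA. A stretch of 35 bases gave 46 of 76 members above by ratio and 49 above by RNA, where 22.3% and 21.4% of all genes were, median differences in genomic DNA of 1.25 (1.28 in families of 2), a ratio of 0.090 in families of 3 or 4 and a probe difference in ratio of 0.043. Without suffix d genes the median differences were 3.60 in ratio and 4.85 in RNA, and families of 3 or 4 had a ratio of 2.58. Without single replicates the probe difference in ratio ranged from 0.023 to 0.13, and members called above by genomic DNA from 45 to 52. The share of all genes called in these fits was not counted, so the change cannot be set against that of the whole array.

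Of the named genes' ratios, 23 of 390 values changed sign. With processed signals these were Scas_550.9 (-0.37), Scas_509.2 (-0.98), Scas_714.19 (-0.51), Scas_680.17 (-1.01), Scas_626.2 (-0.28), Scas_692.7 (-1.19) and Scas_719.40 (-0.48). With normexp they were Scas_509.2 (-0.43), Scas_56.1 (-0.11) and Scas_692.7 (-0.033). With loess they were Scas_550.9 (-0.77), Scas_509.2 (-1.43), Scas_714.19 (-0.57), Scas_680.17 (-1.50), Scas_175.1 (1.17), Scas_440.1 (1.53), Scas_626.2 (-0.76), Scas_692.7 (-1.72) and Scas_719.40 (-0.71). With the brighter probe they were Scas_550.9 (-0.51), Scas_509.2 (-0.44), Scas_56.1 (-0.23) and Scas_552.2 (0.44). A further 6 ratios lost their call and 4 gained one.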
